A study of Mus musculus with 8 samples.

Results

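The genes described here are S100a8, S100a9, Il1r2, Cxcr2 and Mmp9, 5 genes that neutrophils express strongly, followed in mouse epididymal white fat of mice given CL 316243, a drug that activates the β3-adrenergic receptor on fat cells. They were taken by gene symbol from the platform annotation, with the brightest probe set standing for each gene. All 5 have a probe set on the array, with 7 probe sets in all, among 8251 genes with a probe set of 1 symbol. All 5 passed a filter that kept 6133 genes brighter than an intensity of 170 on at least 2 arrays, but 4 of them lay under 170 on both control arrays and passed through their treated arrays. These 5 are the neutrophil genes that an earlier analysis of the same arrays had called at 8 hours. Their 8 hour change is therefore a description and not independent evidence.

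There were 8 groups of 1 array each, an Affymetrix mouse array hybridised with total RNA. Wild type mice and Ppara KO mice, which lack the fatty acid receptor PPARα, were each sampled as a control, 8 hours after 30 nmol of drug, and after 3 days or 6 days at 3 nmol per hour. The wild type control is labelled as given no drug, and the sources used here give no strain, age, sex, vehicle or number of animals behind an array. The dose form differs between 8 hours and the later times, so time and regimen cannot be told apart. Ppara itself was lower in the Ppara KO array at 4 of 4 times (log2 difference -1.51 ± 0.28, standard error, limma adjusted p = 0.287), and whether its probe set lies in the deleted part is not known here.

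Neutrophils are short-lived blood leukocytes that enter tissue within hours of an inflammatory signal. S100a8 and S100a9 encode the 2 calcium-binding proteins that pair as calprotectin, which makes up much of the neutrophil cytosol, binds zinc and manganese, and signals danger once released. Il1r2 encodes a decoy receptor that takes up interleukin 1 without signalling, Cxcr2 the receptor that guides neutrophils along CXC chemokines, and Mmp9 gelatinase B, a protease stored in neutrophil granules that cuts basement membrane collagen. Monocytes and macrophages can make calprotectin and gelatinase B as well.

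S100a8 and S100a9 are neighbours on mouse chromosome 3 of the GRCm38.p6 assembly. S100a8 lies at chr3:90669071-90670034 on the plus strand and S100a9 at chr3:90692630-90695721 on the minus strand, with 22595 bases and 0 other RefSeq genes between them. Their RefSeq promoter windows, 250 bases before to 50 bases after the annotated start, are shown because this pair had the largest rises of the 5 genes. Capitals mark TATAAA, the TATA box, TTGCNNAA, a site of the C/EBP family, and GAGGAA, a site of the ETS family that includes PU.1, on either strand. The windows are chr3:90668821-90669120, plus strand, and chr3:90695672-90695971, minus strand.
S100a8: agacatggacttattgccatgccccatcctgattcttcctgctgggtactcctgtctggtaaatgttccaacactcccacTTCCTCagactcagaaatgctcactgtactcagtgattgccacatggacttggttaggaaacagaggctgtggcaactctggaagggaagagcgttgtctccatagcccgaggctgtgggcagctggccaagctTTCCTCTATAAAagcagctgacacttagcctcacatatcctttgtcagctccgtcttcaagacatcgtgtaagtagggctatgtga
S100a9: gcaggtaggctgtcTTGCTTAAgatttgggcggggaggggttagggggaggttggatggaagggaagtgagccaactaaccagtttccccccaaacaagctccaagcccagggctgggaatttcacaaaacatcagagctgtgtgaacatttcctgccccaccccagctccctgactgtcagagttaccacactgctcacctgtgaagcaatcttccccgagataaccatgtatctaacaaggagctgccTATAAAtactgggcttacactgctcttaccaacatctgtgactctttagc

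TATAAA stood in both windows, at base 221 of 300 in S100a8 and at base 251 in S100a9, which is the annotated start itself. Of all 32851 RefSeq promoter windows of this length, 13.6% held TATAAA on either strand. GAGGAA was found in S100a8 at bases 81 and 215, both on the reverse strand, the latter abutting the TATA box, and in 28.3% of all windows. TTGCNNAA was found in S100a9 at base 15, and in 10.8% of all windows. TGANTCA, the AP-1 site, had 0 matches in these windows and was in 7.81% of all. A loose form of the NF-κB site (GGG, any 5 bases, CC) had 0 matches here and was in 50.8% of all. Of the other members, Il1r2 (chr1:40084692-40125230) had 0 matches to any of the 5 motifs in its window. That window, chr1:40085843-40086142, lies inside the gene span, at an annotated start further in, and the bases before the span were not searched. Cxcr2 (chr1:74153994-74161246) had GAGGAA at bases 170 and 257 and the loose NF-κB form at base 225, all on the reverse strand. Mmp9 is at chr2:164940326-164955850. A match of letters is a description and does not show a bound site.

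All 5 genes had their highest intensities at 8 hours, and how far they came down afterwards differed by gene and genotype. For each of them both 8 hour arrays lay above all 6 other arrays, a pattern held by 15.1% of the 6133 genes. In the fit of genotype plus time over 8 arrays, all 5 rose at 8 hours, against 6.44% of all genes, and 8.23% of all genes fell. Each of the 5 was at least 2-fold over the control of its own genotype, as were 8.14% of all genes in wild type and 11.2% in Ppara KO. The members' median log2 change was 3.23, and that of all genes was -0.02. Values under the floor of 170 were set to 170 before log2, so a change from such a control is a lower bound, given as "at least". Arrays set to 170 are equal by construction, so the errors and p-values of genes with many such arrays do not measure array spread. In whole tissue more cells of a type and more RNA per cell cannot be told apart.

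**Figure D1:**
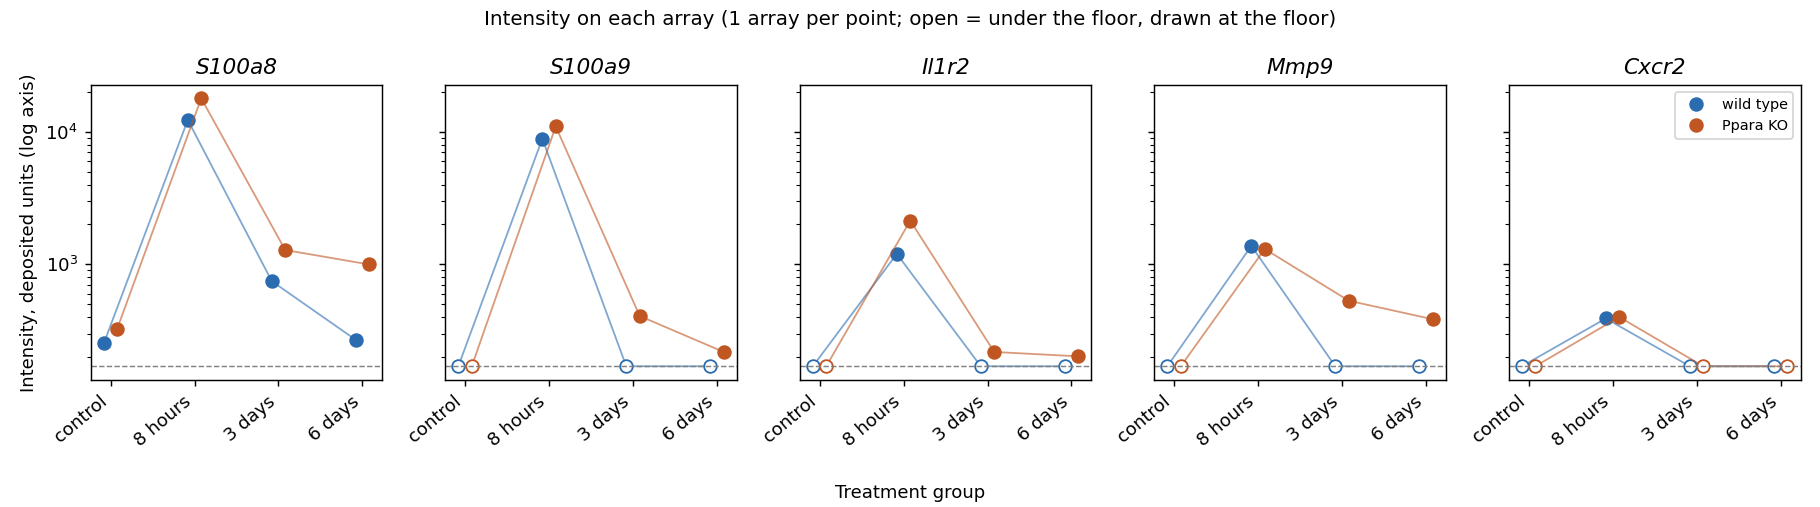
Deposited intensity (vertical log axis) of the 5 genes on each of the 8 arrays, by treatment group (horizontal axis) and genotype, 1 array per point. The dashed line is the floor of 170, and open points are values under it, drawn at the floor. S100a8 peaked at 12282 and 17892 at 8 hours, and at 3 days and 6 days S100a9, Il1r2 and Mmp9 were above the floor in Ppara KO arrays and under it in wild type arrays.

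S100a8, the smaller calprotectin subunit, read 253 in the control of the wild type, 12282 after 8 hours, 746 after 3 days and 269 after 6 days. In Ppara KO these 4 arrays read 327, 17892, 1282 and 997. It is the 1 member above the floor on all 8 arrays, and its 8 hour arrays stand far above the rest. The 8 hour array was 48.5-fold over its control in wild type and 54.7-fold in Ppara KO, or 5.69 ± 0.38 on the log2 scale over both genotypes.

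S100a9, the larger subunit, read -26, 8857, 86 and 36 in wild type, in the same order of arrays. The Ppara KO intensities were 12, 10978, 407 and 218. Both controls were under the floor, and so were the wild type arrays at 3 days and 6 days, whereas both later Ppara KO arrays were above it. The 8 hour array was at least 52.1-fold over control in wild type and at least 64.6-fold in Ppara KO (at least 5.86 ± 0.32 on the log2 scale).

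Il1r2, the decoy receptor, had intensities of 57, 1199, 91 and 37 in wild type. Those of Ppara KO were 46, 2135, 218 and 202. Only the 8 hour array was above the floor in wild type, while 3 of 4 arrays were in Ppara KO. Its change at 8 hours was at least 3.23 ± 0.24. A second probe set of Il1r2, not used for the fit, read 90, 1103, 160 and 92 in wild type and 31, 1762, 219 and 183 in Ppara KO, above the floor on the same 4 arrays.

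Cxcr2, the chemokine receptor, gave the dimmest signal at its peak, with 63, 390, 101 and 79 in wild type. In Ppara KO it read 20, 400, 116 and 42. Only the 8 hour arrays exceeded the floor, by 2.29-fold and 2.35-fold, so its change of at least 1.22 ± 0.16 rests on a signal not far above that limit. With the floor at 320 it was 0.30 ± 0.15 and no longer passed (adjusted p = 0.218).

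Mmp9, the gelatinase, had wild type intensities of -120, 1377, -4 and -135. The Ppara KO intensities were -127, 1305, 531 and 385. At 8 hours the genotypes were alike to within 1.06-fold, and at the later times Mmp9 was seen in Ppara KO and not in wild type. Its change at 8 hours was at least 2.98 ± 0.46, the widest error of the 5 genes. That error also holds the genotype difference at the later times. The 8 hour changes themselves were at least 3.02 in wild type and at least 2.94 in Ppara KO. A second, dimmer probe set of Mmp9 was under the floor on all 8 arrays and reached at most 102.

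The limma adjusted p at 8 hours ran from 0.00188 for S100a9 to 0.0150 for Mmp9. Just outside the threshold of 0.05 among neutrophil markers past the filter was Itgam, the integrin CD11b shared with macrophages, at 2.73 ± 0.72 or more (adjusted p = 0.0561). These calls depended on few arrays: leaving out a single 3 day or 6 day array kept 5 members past the threshold, leaving out the control of wild type kept 4, the control of Ppara KO 1, the 8 hour array of wild type 1 and that of Ppara KO 0. The sizes moved less, with S100a8 between 5.34 and 6.04 and Il1r2 between 2.92 and 3.55 when any 1 array was left out.

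By 3 days of infusion the 5 genes had come down from the 8 hour level. From 8 hours to 3 days S100a9 fell (log2 change -5.23 ± 0.32), as did S100a8 (-3.92 ± 0.38), Il1r2 (-3.055 ± 0.24) and Cxcr2 (-1.22 ± 0.16) (limma adjusted p from 0.00362 to 0.0248). For S100a9, Il1r2 and Cxcr2 these sizes are lower bounds, since at least 1 of the 3 day arrays was under the floor. Mmp9, likewise a bound, stood at -2.16 ± 0.46 or beyond with an adjusted p of 0.0603. So 4 of 5 fell, against 2.41% of all genes, and this comparison shares the 8 hour arrays on which the genes had been picked. The count of members that fell was 2 without either control, 1 with either 3 day array left out and 0 with either 8 hour array left out.

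The remainder differed between the genes. S100a8 kept 6.07% of its 8 hour intensity at 3 days in wild type and 7.17% in Ppara KO, and 2.19% and 5.57% at 6 days. S100a9 in Ppara KO kept 3.71% at 3 days and 1.99% at 6 days. Mmp9 in Ppara KO kept 40.7% at 3 days and 29.5% at 6 days, whereas in wild type it was under the floor, which allows at most 12.3%. Il1r2 in Ppara KO kept 10.2% and 9.46%.

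Against control, 0 of the 5 genes passed at 3 days or at 6 days, and among all genes 0.424% rose and 0.701% fell at 3 days, and 0.228% rose and 0.603% fell at 6 days. At an unadjusted p under 0.05, 1323 genes differed at 3 days and 1118 at 6 days, in either direction. S100a8 came nearest, at 1.77 ± 0.38 at 3 days (limma adjusted p = 0.0856) and 0.85 ± 0.38 at 6 days (adjusted p = 0.315). S100a8 passed at 3 days without either 6 day array (adjusted p = 0.0163) and at 6 days without the wild type 6 day array (1.51 ± 0.25, adjusted p = 0.0442). Mmp9 stood at 0.82 ± 0.46 at 3 days and 0.59 ± 0.46 at 6 days, S100a9 at 0.63 ± 0.32 and 0.18 ± 0.32, and Il1r2 at 0.18 ± 0.24 and 0.12 ± 0.24. Cxcr2 was under the floor on all 4 infusion arrays. From 3 days to 6 days 0 of 5 members and 0 of 6133 genes (0.0%) passed in limma, while 109 genes had an unadjusted p under 0.05.

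**Figure D2:**
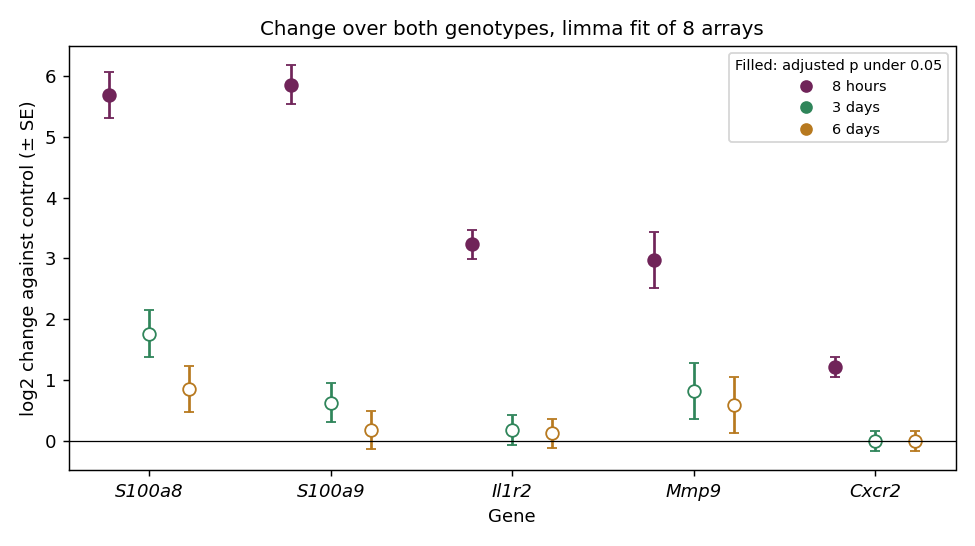
The log2 change against control (vertical axis) of each gene (horizontal axis) at 8 hours, 3 days and 6 days, over both genotypes from the limma fit, with bars of 1 standard error. Filled points pass an adjusted p of 0.05: the 8 hour changes of all 5 genes, from 1.22 for Cxcr2 to 5.86 for S100a9, do, and the later changes do not.

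The genotypes were then compared over the 4 times. S100a8 was higher in Ppara KO at 4 of 4 times, by 0.90 ± 0.27 on the log2 scale (limma adjusted p = 0.291, unadjusted p = 0.0158). Mmp9 stood at 0.69 ± 0.33, S100a9 at 0.48 ± 0.22, Il1r2 at 0.36 ± 0.17 and Cxcr2 at 0.01 ± 0.12 (adjusted p from 0.360 to 0.974). None of the 5 passed, and 0 of 6133 genes (0.0%) did, in either direction. Genes that, like S100a8, were higher in Ppara KO at all 4 times made up 8.89% of those tested. At an unadjusted p under 0.05, 938 genes differed. The drug response did not pass as different between genotypes for any of the 5 genes. Estimates ran from 0.01 ± 0.23 for Cxcr2 to 0.92 ± 0.75 for Mmp9, with limma adjusted p of 0.655 or more. Both controls of S100a9, Il1r2, Mmp9 and Cxcr2 were set to the floor. Their drug response differences therefore rest on the same array differences as the genotype values above and are no separate result. In the comparison of drug responses 0 of 6133 genes (0.0%) passed, and 624 had an unadjusted p under 0.05.

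Single times were also compared, 1 array against 1. The controls differed by 0.37 in S100a8 (log2, Ppara KO minus wild type), and the other 4 genes were under the floor in both. At 8 hours the difference was 0.83 in Il1r2, 0.54 in S100a8, 0.31 in S100a9, 0.04 in Cxcr2 and -0.08 in Mmp9. At 3 days the difference was at least 1.64 in Mmp9, at least 1.26 in S100a9, 0.78 in S100a8 and at least 0.36 in Il1r2. At 6 days it was 1.89 in S100a8, at least 1.18 in Mmp9, at least 0.36 in S100a9 and at least 0.25 in Il1r2. Of the 5 genes, 4 were higher in Ppara KO at both 3 days and 6 days, against 34.0% of all genes. None of the 5 was 2-fold higher in the control (3.31% of all genes) or at 8 hours (1.74%), while 2 of 5 genes were at least 2-fold higher in Ppara KO at 3 days, against 2.58% of all genes, and 2 of 5 at 6 days, against 9.33%. These are differences of 1 array from 1 array, with no replicate.

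Against the control of its own genotype S100a8 gives separate values, but for S100a9, Il1r2 and Mmp9 the Ppara KO changes during infusion equal the differences from wild type, because both comparison arrays were set to the floor. In Ppara KO 3 of 5 genes were at least 2-fold over control at 3 days (8.71% of all genes) and 2 of 5 at 6 days (9.46%). In wild type 1 of 5 was at 3 days (5.59%), S100a8 at 2.95-fold, and 0 of 5 at 6 days (3.57%). The Ppara KO arrays of 3 days and 6 days were also the brightest for macrophage markers, with summed intensities of 145526 and 160783 over 14 genes. The sums on the wild type arrays were 99039 at 3 days and 36004 at 6 days, and those of the controls were 25644 in wild type and 24974 in Ppara KO. All 14 had a positive difference of Ppara KO over wild type, and 0 passed. The part of macrophages in the infusion values of the 5 genes was not tested.

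**Figure D3:**
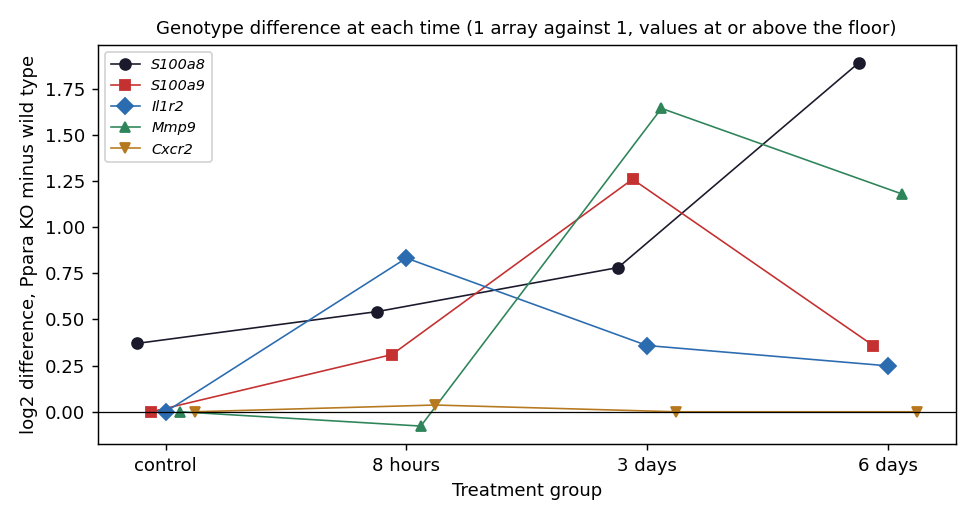
The log2 difference of the Ppara KO array over the wild type array (vertical axis) at each time (horizontal axis) for the 5 genes, 1 array against 1, with values under 170 set to 170. Points at 3 days and 6 days lie at or above 0, up to 1.64 for Mmp9 at 3 days and 1.89 for S100a8 at 6 days, and Cxcr2 stays within 0.04 of 0.

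Other neutrophil markers past the filter mostly had positive changes at 8 hours, and 1 of them passed. Of 25 markers listed, 15 had a probe set and 12 passed the filter. Of these, 6 rose at 8 hours: the 5 genes above, which had been picked on that call, and Fpr2. Without the 5 members 1 of 7 rose, against 6.44% of all genes, and 6 of the 7 changes were positive. Fpr2 encodes a formyl peptide receptor that neutrophils use to sense bacteria. Fpr2 read 31, 644, 21 and 79 in wild type and 26, 1125, 135 and 139 in Ppara KO (control, 8 hours, 3 days, 6 days), and its change was at least 2.32 ± 0.26 (limma adjusted p = 0.00787). It shares with Cxcr2 a signal above the floor at 8 hours alone. Fpr2 thus passed the filter through its 8 hour arrays, and the 1 of 7 is a description. The list's median change at 8 hours was 2.38, and 1.85 without the 5 members. Ly6g, the surface marker that defines mouse neutrophils, was under the floor on all 8 arrays. It read 140 (wild type) and 154 (Ppara KO) at 8 hours, and between 1 and 57 on the other arrays. Csf3r, the receptor of the neutrophil growth factor G-CSF, was between 1291 and 2101 on all arrays, with a change at 8 hours of -0.05 ± 0.20. Itgb2, the partner chain of Itgam, stood at 2.44 ± 0.80 at 8 hours and 2.63 ± 0.80 at 3 days, and passed at neither (adjusted p of 0.0927 and 0.145). Fpr2, Itgam, Itgb2, Csf3r and Ly6g, and further on Mpo, Ctsg, Ngp, Gfi1, Il1a and Mmp8, lie outside the rule for named genes and were chosen after their values were seen.

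Genes of the neutrophil granules gave 1 call at 8 hours. Of 13 with a probe set 7 passed the filter, and 1 of these rose, against 6.44% of all genes. It was Pglyrp1, a peptidoglycan binding protein of granules, at 1.36 ± 0.22 or more (limma adjusted p = 0.0172). Pglyrp1 was above the floor at 8 hours alone and passed the filter through those arrays, so this count is a description. The list's median change was 0.53. Mpo, Ctsg, Ngp and the maturation factor Gfi1 were under the floor on all 8 arrays. Elane, neutrophil elastase, stood at -0.75 ± 0.26 (adjusted p = 0.101). Lcn2, a siderophore binding protein of granules that epithelia and fat also make, read 537 in the wild type control and 10393 at 8 hours, but 16051 in the Ppara KO control and 13376 at 8 hours. That Ppara KO control was also bright for epididymal genes, with a summed intensity of 83657 over 4 genes against 419 in the wild type control, and their part in the Lcn2 value was not tested. Of the 5 measured subunits of the NADPH oxidase, the neutrophil and macrophage enzyme that makes superoxide, 0 passed at any time. Their median change was 1.34 at 8 hours, 2.14 at 3 days and 1.76 at 6 days, against -0.02, -0.03 and -0.00 for all genes.

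A list of CXCR2 ligands and the neutrophil growth factor also held Pf4, a platelet chemokine, which was under the floor on all arrays. Of its 5 genes with a probe set, 4 passed the filter and rose at 8 hours, against 6.44% of all genes. The 4 were the chemokines Cxcl1 (at least 4.54 ± 0.27), Cxcl5 (at least 3.80 ± 0.20) and Cxcl2 (at least 3.62 ± 0.22), and Csf3, the gene of G-CSF (0.91 ± 0.20, adjusted p = 0.0357). Cxcl2 was above the floor at 8 hours alone and passed the filter through those arrays, so the count is a description. Cxcl1 read 99, 3189, 124 and 91 on the wild type arrays and 88, 4877, 330 and 297 in Ppara KO. It was thus above the floor at 8 hours in both genotypes and at the later times in Ppara KO alone, on the same 4 arrays as S100a9, Il1r2 and Mmp9. From 8 hours to 3 days Cxcl1, Cxcl2 and Cxcl5 fell, with log2 changes of -4.06, -3.62 and -3.71 or beyond (adjusted p from 0.00362 to 0.00404).

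Of 12 interleukin 1 genes with a probe set around Il1r2, 8 passed the filter, 3 of these rose at 8 hours and 5 did not pass the test. The 3 were Il1b, the ligand (at least 3.99 ± 0.18), Il1rn, the receptor antagonist (at least 3.81 ± 0.86), and Il1r1, the signalling receptor (1.94 ± 0.23). The list's median change was 0.48. Il1b read 15, 2975, 45 and 34 in wild type and -6, 2463, 112 and 141 in Ppara KO, so it passed the floor at 8 hours only. Il1rn was still at 976 and 1663 in Ppara KO at 3 days and 6 days, and at 784 and -7 in wild type. Il1a was under the floor on all 8 arrays. The ligand, the antagonist and the signalling receptor were thus called at 8 hours, with limma adjusted p from 0.00163 to 0.0378. The decoy receptor Il1r2 was called too, but it had been picked on that call. The 3 rises of 8 stand against 6.44% of all genes, and 3 of the 8 changes were negative. Il1b passed the filter through its 8 hour arrays alone, so this count is a description.

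Among binding partners of calprotectin, Cd14, a co-receptor of TLR4 on myeloid cells, rose at 8 hours by 2.67 ± 0.57 (adjusted p = 0.0327). It was the 1 call among 4 genes with a probe set, against 6.44% of all genes that rose. The median change of the 4 was -0.10. Ager, the gene of the receptor RAGE, stood at 0.06. Of 12 genes with a probe set in a list of other S100 proteins, which also held S100pbp, 10 passed the filter. Of these 0 rose, against 6.44% of all genes, too few genes to read as a difference. Falls were called for 3, against 8.23% of all genes. They were S100a1 (-1.02 ± 0.23), S100a13 (-0.87 ± 0.19) and S100pbp, which encodes an S100P binding protein (-0.83 ± 0.17 or beyond). Their limma adjusted p ran from 0.0310 to 0.0381, and the list median was -0.31. S100a4, which macrophages and fibroblasts express, stood at 1.22 ± 0.87 (adjusted p = 0.390).

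Around Mmp9, Timp1, an inhibitor of gelatinases, rose by 4.05 ± 0.59 at 8 hours (adjusted p = 0.0137). It read 1666, 18624, 7883 and 2270 in wild type and 1199, 29589, 15551 and 10902 in Ppara KO, higher than its control on each treated array. The proteases Mmp7 (at least 2.48 ± 0.47) and Mmp3, stromelysin 1 (at least 1.67 ± 0.24), also rose, and Reck, a membrane inhibitor of metalloproteinases, fell (-1.30 ± 0.26, at least this far). Of 9 genes past the filter, from 14 with a probe set, 3 rose and 1 fell, against 6.44% and 8.23% of all genes. Mmp3 was above the floor at 8 hours alone and passed the filter through those arrays, so the count is a description. The list's median change was -0.02. Mmp8, the neutrophil collagenase, exceeded the floor on 1 array, Ppara KO at 8 hours, with 409. Of 10 genes of neutrophil adhesion past the filter, from 11 with a probe set, 2 rose, against 6.44% of all genes. They were Selp, the endothelial P-selectin that slows rolling leukocytes (at least 2.79 ± 0.17), and Cd44 (at least 2.53 ± 0.62). The list median was 0.65. Icam1, a ligand of the neutrophil integrins, stood at 1.54 ± 0.40 (adjusted p = 0.0548).

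**Figure D4:**
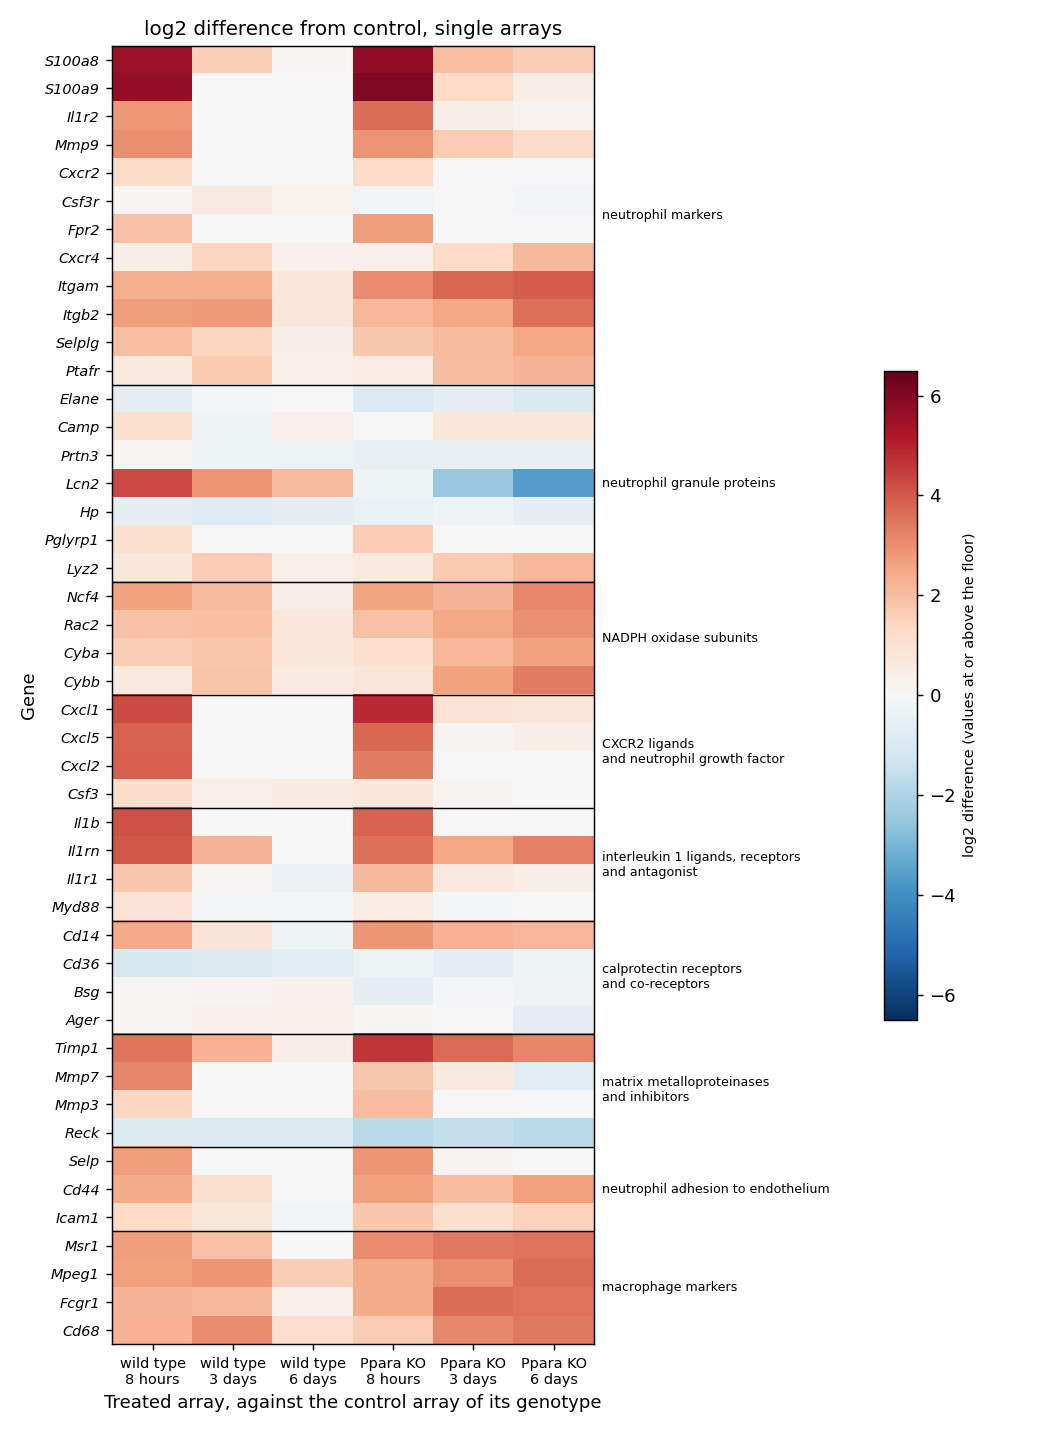
The log2 difference of each treated array (columns) from the control array of its genotype, in colour, for the 5 genes, other neutrophil and granule genes and up to 4 genes of each related list (rows). Values under 170 were set to 170. The calprotectin rows reach 6.01, and Cxcl1, Cxcl2, Cxcl5 and Il1b are coloured mainly at 8 hours. The macrophage rows stay coloured at 3 days in both genotypes, and at 6 days more in Ppara KO than in wild type.

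The genes most like the 5 were sought by Pearson correlation with the mean of their standardised log2 profiles over the 8 arrays. The 8 highest were Cxcl1 (r = 0.998), Ptx3, Acsl4, Il1r1, Star, Socs3, Cxcl5 and Selp (r = 0.983), and 88 genes had 0.95 or more. These values describe the arrays and carry no p, since the profile is set mainly by the 2 arrays of 8 hours. Ptx3, the gene of the pattern recognition protein pentraxin 3, read 59, 3857, 290 and 4 in wild type and 18, 7462, 573 and 339 in Ppara KO. Star, the mitochondrial cholesterol carrier of steroid synthesis, read 18, 3873, 303 and 32 in wild type and -49, 8584, 697 and 314 in Ppara KO. Both were higher in Ppara KO than in wild type at 8 hours, 3 days and 6 days, as S100a8 and S100a9 were. Socs3, a feedback inhibitor of cytokine signalling, rose by 3.43 ± 0.24 and Acsl4, which activates arachidonic acid, by 3.65 ± 0.24 (limma adjusted p of 0.00204 and 0.00197).

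Markers of other cells that could carry these genes were looked at on all arrays. Macrophage markers were bright on every array, with 13 of 14 above the floor on all 8. At 8 hours 1 of the 14 rose, against 6.44% of all genes. It was Mpeg1 (2.53 ± 0.54, adjusted p = 0.0328), and the list median was 1.56. Leaving out either 6 day array gave 7 macrophage calls at 8 hours, and leaving out any of the other 6 arrays 0. Of 4 red cell genes past the filter 0 passed the test at 8 hours, where 6.44% of all genes rose and 8.23% fell. The summed intensity of this list was 39482 and 56860 at 8 hours and 56912 and 57322 in the controls (wild type, Ppara KO), most of it from Hba-a1. Its part in the 8 hour values was not tested. Eosinophil markers (4 of 4) and 8 of 10 T and NK cell markers were under the floor throughout. Mast cell markers summed to between 1764 and 2387 on the 8 arrays. Keratinocyte markers, which matter because skin epithelium can make calprotectin, summed to 1684 and 3484 at 8 hours, the latter with 1883 from Sprr1a alone, and to between 1419 and 2140 otherwise. Of these 9 genes 4 were above the floor on each array, with Krt6a at 278 to 559 and Lor at 506 to 881. Krt5, Krt14 and Krt16 were under it on all arrays. Of 5 past the filter 0 rose at 8 hours and 1 fell, against 6.44% and 8.23% of all genes. It was Krt10 (-1.08 ± 0.21 or beyond, limma adjusted p = 0.0275). Of 5 B cell markers past the filter, Ighm fell at 8 hours, against 8.23% of all genes, and the other 4 did not pass, with a list median of 0.0. Adipocyte markers, which define the labelled tissue, were above the floor on all arrays for 9 of 9 genes. At 8 hours 7 of these fell, against 8.23% of all genes, among them Lep, the gene of leptin (-4.13 ± 0.28). The wild type control was bright for pancreas genes, with a sum of 72003 over 6 genes against 3258 in the Ppara KO control, and the Ppara KO 8 hour array stood at 20237 for these and 12435 for epididymal genes. The part of such tissue in the changes against control was not tested.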

How the data were processed

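Total RNA of epididymal white fat was measured on 8 Affymetrix U74Av2 arrays, 1 per group. The authors deposited 1 table of 12488 probe sets as linear intensities without decimals, 11.9% of them below 0, and no column was left unused (0 columns). The deposited values show arrays brought to a common distribution, with all 8 medians at 320. The method is not given in the sources used here. The platform annotation gave 10855 probe sets 1 symbol, 396 several and 1237 none, and 10839 were updated through the RefSeq gene table of GRCm38.p6. The 66 array controls stayed out of the tests. Intensities under 170, the 40th percentile of all values, were set to 170, and log2 was taken. Probe sets above 170 on at least 2 arrays were kept, the brightest per gene. On each array at least 39.9% of probe sets lay under 170, and the number of arrays limits the precision.

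The fits used limma (version 3.58.1, under R 4.3.3) on genotype plus time over 8 arrays (3 residual degrees of freedom, 2 arrays per time), and, for the response by genotype, with a genotype by drug term (2 residual degrees of freedom). P-values were adjusted over 6133 genes by the Benjamini-Hochberg method, with a threshold of 0.05. Whether arrays came from separate animals is not stated, and no group held a replicate, so spread between replicates could not be measured. The residual of the genotype plus time fit mixes array to array spread, possibly technical, with any genotype difference in the time course. With the genotype by drug term, the residual still holds any such difference among the treated times. The p-values and errors rest on these mixed residuals. Errors are standard errors. The fit was tested on simulated data. The members and the 19 gene lists were chosen with earlier results of these data known. Genes were named by rule: the members, Ppara, up to 4 genes of each list with the largest 8 hour change, any listed gene passing at 3 or 6 days, the 8 genes most like the members, and defining markers of cell types. Alternatives changed the floor, the filter, the normalization, the prior, the probe sets and the arrays used.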

Additional observations from a re-analysis of the deposited data

How the results depend on the processing

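No paired analysis was possible because each group held 1 array and the labels carry no replicate numbers. The number of the 5 genes called at 8 hours was 5 with the floor at 50, with quantile normalization, with all probe sets of a gene averaged and with a trended robust prior, and 4 with the floor at 320 or without the filter. With 1 array left out it ran from 0 to 5, and the calls of all genes from 0 to 529 around 395, with fewer residual degrees of freedom. Without the filter on dim probe sets 99 genes rose at 8 hours, 0 at 3 days and 0 at 6 days, against 395, 26 and 14. In that setting 23 fell from 8 hours to 3 days with 1 of the 5 members, against 148 with 4 members. There 56 genes passed with a positive difference of the drug response, Ppara KO minus wild type, against 0. Such a difference can be a larger rise or a smaller fall in Ppara KO. With the floor at 50, 14 rose at 3 days, 4 at 6 days and 73 fell from 8 hours. With the floor at 320, 40 rose at 3 days and 24 at 6 days, and with a trended robust prior 61 and 52. With 1 array left out, all-gene counts ran from 0 to 271 at 3 days, 0 to 188 at 6 days and 0 to 171 for falls after 8 hours, and member counts from 0 to 1, 0 to 1 and 0 to 4.

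Signs turned only in values that never passed. With 1 array left out, the change of Il1r2 ran from -0.061 to 0.42 at 3 days and from -0.12 to 0.36 at 6 days, and that of S100a9 from -0.14 to 0.50 at 6 days, each lowest without the Ppara KO control. From 3 days to 6 days S100a9 ran from -0.97 to 0.068, Il1r2 from -0.13 to 0.019 and Mmp9 from -0.87 to 0.41, with Mmp9 at 0.10 without the wild type 6 day array. Cxcr2 stood at -0.19 between genotypes with the floor at 50. Of 30 other named genes called at 8 hours, leaving out either 6 day array kept 30 and either 3 day array 18, while dropping a control kept 17 (wild type) or 7 (Ppara KO), and dropping an 8 hour array 6 (wild type) or 0 (Ppara KO). The rises of CXCR2 ligands numbered 0 once the 8 hour array of Ppara KO was dropped, 2 for that of wild type, and 3 or 4 for any other array. Interaction fits without a control array could not be made. Values under the floor have no order, which limits all statements on Cxcr2 and on wild type arrays during infusion.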

Other observations

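Sprr1a, a cornified envelope gene of epithelia that stress can induce, read -2, 252, 37 and 28 in wild type and -21, 1883, 135 and 84 in Ppara KO (control, 8 hours, 3 days, 6 days), with a change at 8 hours of at least 2.02 ± 0.74 that did not pass (limma adjusted p = 0.124). Ighm, the heavy chain of immunoglobulin M, went the other way from the neutrophil genes at 8 hours. It read 8095 and 11339 in the controls and 2546 and 1488 at 8 hours (wild type, Ppara KO), a log2 change of -2.30 ± 0.32 (adjusted p = 0.0127), and stood at 3825 and 4586 at 3 days.

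Mmp12, the macrophage elastase, named after its values were seen, differed in time from Mmp9. It read 882, 1090, 1300 and 2087 in wild type and 1665, 1305, 2106 and 9399 in Ppara KO, with its highest value at 6 days in both genotypes. Its change did not pass at 8 hours, 3 days or 6 days, with 1.87 at 6 days and an adjusted p of 0.122.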
